A study of Mus musculus with 2 samples.

Results

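The complement genes described here were 9 genes of the mouse complement system: the C1q subunit genes C1qa, C1qb and C1qc, the components C3 and C4b, the receptors C3ar1 and C5ar1, and the regulators Serping1 and Cd59a. Each was taken as the row of the count tables whose gene symbol equals its name, and all 9 were found among the 31053 genes counted. They were measured by droplet single-cell RNA sequencing of mouse brain in 2 pooled samples, each the only one of its group. The first, called sorted here, holds brain cells of male mice aged 3 and 12 months that passed fluorescence-activated cell sorting, with a gate that the labels do not state. In the total brain sample, unsorted cells of male and female mice were pooled, aged 2 and 24 months by its title, although the label for age has 240 months. Each sample pools wild type (WT) and STING-KO mice, which lack the adaptor protein STING of the cytosolic DNA sensing pathway; 2 mice were grouped per genotype and age, and the labels do not state which stretch of the gene was deleted. Each count table pools 4 barcode suffixes. The labels assign none of them to an age, a sex or a genotype, so suffixes are given by number and are not replicates of any condition. With 1 sample in each group no test was made. Sorting, age and sex all change from 1 sample to the other and cannot be told apart.

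Complement is a cascade of plasma and cell surface proteins that marks particles for uptake and recruits immune cells. C1q, assembled from the products of C1qa, C1qb and C1qc, recognises the target and starts the classical route, which cleaves C4 and then C3. Cleaved fragments of C3 and C5 signal through the receptors encoded by C3ar1 and C5ar1. Serping1 encodes the C1 inhibitor, which blocks the proteases of the C1 complex, and Cd59a encodes a membrane protein that blocks the pore-forming end of the cascade. In brain, microglia are known as the main source of C1q, and C1q and C3 are known for tagging synapses for removal.

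The C1q genes lie side by side. In GENCODE M21 (genome build GRCm38) C1qb, C1qc and C1qa (ENSMUSG00000036905, ENSMUSG00000036896 and ENSMUSG00000036887) follow each other on the minus strand of chromosome 4, from 136880129 to 136898803, a span of 18675 bases with gaps of 3616 and 2851 bases between them. The other members are scattered: C3 at 57203970 to 57228136 and C4b at 34728380 to 34743882 on chromosome 17, C3ar1 at 122847138 to 122856161 on chromosome 6, C5ar1 at 16246743 to 16259540 on chromosome 7, Serping1 at 84765387 to 84775444 and Cd59a at 104095801 to 104115354 on chromosome 2. All but Cd59a are on the minus strand. Because the C1q genes moved together across cell classes, bases upstream of the C1qb and C1qc start sites are shown, from the RefSeq promoter table of build GRCm38.p6, 5′ to 3′ on the strand of the gene. The window of C1qb is chr4:136886201-136886450 and that of C1qc is chr4:136893066-136893164. For C1qc the 151 bases nearest the RefSeq start site, which lie inside the GENCODE gene, are left out, and the 99 shown are the rest of the window of 250 bases. Capitals mark the letters GAGGAA, a core of the sites bound by the macrophage factor PU.1, or their reverse complement.
C1qb: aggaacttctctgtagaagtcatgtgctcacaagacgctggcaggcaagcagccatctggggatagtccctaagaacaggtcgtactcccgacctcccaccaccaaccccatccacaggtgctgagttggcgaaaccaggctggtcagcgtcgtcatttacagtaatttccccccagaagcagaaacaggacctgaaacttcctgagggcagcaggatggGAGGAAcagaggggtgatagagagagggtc
C1qc: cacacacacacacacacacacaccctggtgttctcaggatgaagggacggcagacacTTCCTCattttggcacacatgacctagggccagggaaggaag
The match in C1qb is at -30 to -25 from the RefSeq start site and that in C1qc at -193 to -188, on the other strand. Promoter entries matched 6 of the 9 members (C1qb, C1qc, C3, C3ar1, C5ar1 and Cd59a). In windows of 250 bases, searched on both strands, GAGGAA was found in 3 of the 6 (C1qb, C1qc and Cd59a), and in 23.25% of 32851 windows of all genes. The letters TTGCNNAA of C/EBP sites were found in 1 (C3, at -45 to -38), against 9.564% of all windows. Letters of interferon response elements, GAAANNGAA, were found in 2 (Cd59a and C5ar1), against 7.129%, and those of STAT sites, TTCNNNGAA, in 0, against 7.02%. The C5ar1 match, at -66 to -58, lies inside the GENCODE gene, which begins 202 bases before the RefSeq start site. A match describes letters in these windows and not binding.

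After removal of barcodes with under 500 genes or over 10% mitochondrial UMIs (unique molecular identifiers, which count RNA molecules), 10076 of 13499 barcodes of the sorted sample and 9367 of 14674 of the total sample were kept, with 31220601 and 33498788 UMIs and medians of 2294 and 1692 UMIs per cell. Cells were grouped into 33 clusters without use of complement genes, 4 of which stayed unnamed. Pairs of suffixes of 1 sample shared between 0 and 19 barcodes, and suffixes of different samples 0 to 1. Microglia-like cells, in which 10 of 10 microglial markers were raised in each of the clusters 0, 3 and 14, numbered 4413 in the sorted and 563 in the total sample. The clusters differ between the samples: clusters 0 and 3 gave 2642 and 1769 of the sorted cells, while cluster 14 gave 424 of the total cells. Levels are given as CPM, UMIs of a gene per 1000000 UMIs of a class, and brackets hold 95% intervals (exact Poisson for levels, Clopper-Pearson for shares, binomial for ratios) that cover counting error only. The libraries count the 3′ ends of transcripts, so CPM are not scaled by gene length and stand for molecules captured.

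The C1q genes had the highest levels of the members, and most of their UMIs were in microglia-like cells. Summed over C1qa, C1qb and C1qc, microglia-like cells held 32510 CPM [32394–32625] after sorting and 23960 CPM [23790–24131] in the total sample. Of all C1q UMIs, 88.9% in the sorted and 83.0% in the total sample were in these cells. A C1q UMI was found in all 4413 sorted and all 563 unsorted microglia-like cells. With each cell thinned to 1000 UMIs, the median cell held 32 C1q UMIs in the sorted sample (10th to 90th percentile 22 to 43, 4168 cells) and 23 in the total sample (12 to 35.7, 544 cells), and 1 of these cells had none.

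By suffix 1, 2, 3 and 4 of the sorted sample, C1qa, the A chain gene, had values of 12381, 12513, 10904 and 10884 CPM in microglia-like cells. In the total sample the 4 values of C1qa were 9882, 10187, 8567 and 8875 CPM. Suffixes 1 and 2 were above suffixes 3 and 4 in both samples, and the highest suffix of the total sample was below the lowest of the sorted sample. C1qb, the B chain gene, was at 10937, 10421, 10210 and 10173 CPM in the sorted and at 9022, 9022, 8158 and 8177 CPM in the total sample. C1qc, the C chain gene, was at 9978, 10362, 8914 and 8355 CPM in the sorted and at 6059, 6459, 6122 and 6223 CPM in the total sample. C1qc had the widest gap of the subunits, and for C1qb and C1qc too the suffix values of the samples did not overlap. Over all suffixes, the ratio of total to sorted was 0.764 [0.754–0.774] for C1qa, 0.805 [0.794–0.816] for C1qb and 0.630 [0.621–0.640] for C1qc. A sum of other microglial genes was also lower in the total sample. Cx3cr1, Csf1r, Ctss, Tyrobp, P2ry12 and Fcer1g summed to 27295 CPM in the sorted and 19527 CPM in the total sample, a ratio of 0.715 [0.709–0.722]. These genes were not compared singly, and abundant ones weigh most in the sum. Not every gene highest in microglia-like cells was lower: Itgam was at 276 CPM in the sorted and 533 CPM in the total sample. The part of the summed genes and of depth in the C1q ratios was not tested. The median depth of microglia-like cells was 2029 UMIs in the sorted and 4887 in the total sample, and with cells of 2000 to 6000 UMIs alone the log2 ratio of summed C1q was −0.37 against −0.44 over all cells. Without cluster 14 it was −0.14, that of C1qa −0.05 against −0.39 over all cells, and that of C1qb turned to 0.06. The direction for C1qb, and most of the gap in C1qa and summed C1q, thus depended on whether cluster 14 was counted. This cluster held 424 of the total but 2 of the sorted cells. Its removal left 127 total cells of cluster 0 and 12 of cluster 3. By suffix, the median depth of total cells was 1440 to 2051.5 UMIs in cluster 0 and 5846 to 7086.5 UMIs in cluster 14. The part of cell number and depth in this shift was not tested. For C1qc the log2 ratio was −0.51 or lower under every alternative setting tried. Both settings, the depth window and the removal of cluster 14, were chosen after seeing the data.

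**Figure D1:**
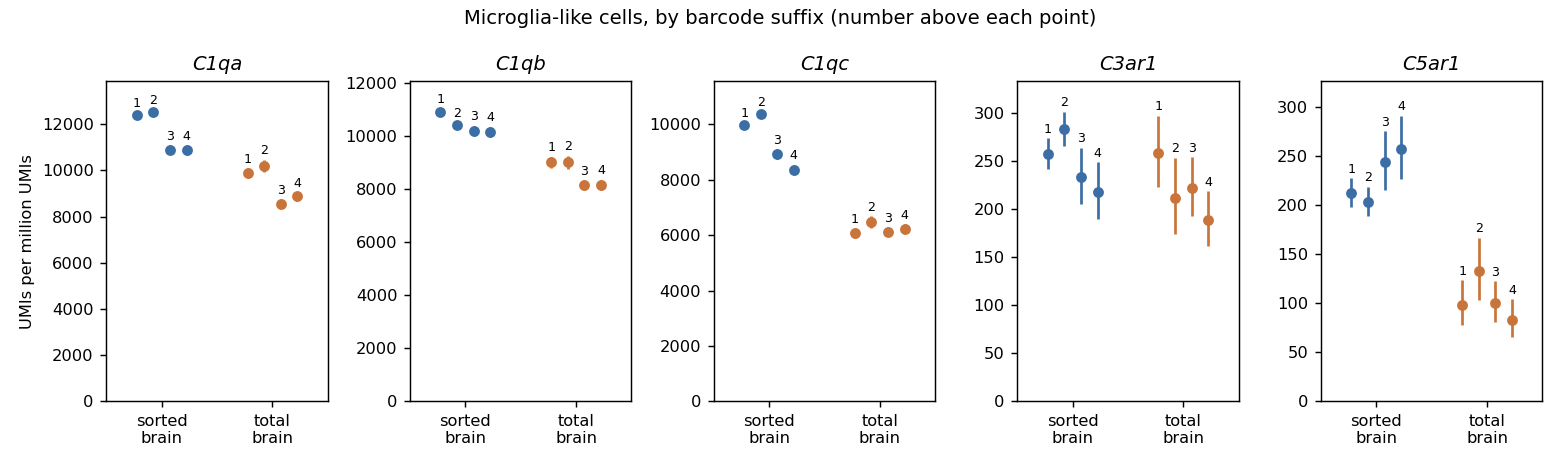
CPM (y axis, from 0) of C1qa, C1qb, C1qc, C3ar1 and C5ar1 in microglia-like cells of the sorted (blue) and total (orange) brain samples. Each point is 1 barcode suffix, numbered, and bars are 95% Poisson intervals; the suffix values of C1qa, C1qb, C1qc and C5ar1 do not overlap between the samples, and those of C3ar1 do.

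The subunits were not captured in equal parts, and the mix differed between the samples. C1qa, C1qb and C1qc gave 37.2%, 32.5% and 30.2% of the C1q UMIs of sorted microglia-like cells, and 38.6%, 35.6% and 25.8% of those of the total sample. The C1qc part was 28.4% to 31.1% over the suffixes of the sorted sample and 24.3% to 26.8% over those of the total sample, without overlap. Other classes with at least 300 C1q UMIs are given in the same order of subunits. In the total sample, neuron-like cells had 37.7%, 35.6% and 26.7%, and endothelial-like cells 37.3%, 38.3% and 24.4%. In the sorted sample, border macrophage-like cells had 37.2%, 34.1% and 28.6%, and choroid plexus epithelial-like cells 36.0%, 34.1% and 29.9%. Across the 14 classes of the sorted sample with this many C1q UMIs, the C1qc part ranged from 28.1% to 33.5%, and across the 8 of the total sample from 24.4% to 31.3%.

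Border macrophage-like cells, named for the macrophages of the meninges, vessels and choroid plexus, were next. This class is cluster 12, in which 9 of 9 border macrophage markers tested were raised. Its leading genes were mostly of antigen presentation (Cd74, H2-Ab1, H2-Aa and H2-Eb1), with 1 border macrophage marker (Pf4) and 1 dendritic cell marker (Cd209a) among the first 10, and 40% of the dendritic cell markers were raised. Dendritic cells were not separated from this class, here or in its values for the other members. The class held 14100 CPM [13899–14303] of C1q in the sorted sample, 43.4% of the microglia-like level, and 5.50% of the C1q UMIs. In these 413 cells C1qa was at 6442, 5664, 4599 and 4597 CPM by suffix, again with suffixes 1 and 2 above suffixes 3 and 4. A C1q UMI was found in 93.0% [90.1–95.2] of them, and in 85.2% after thinning to 1000 UMIs. Their 6 microglial genes, summed as above, were at 40.9% of the microglia-like level.

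Outside these macrophages, C1q stayed below 10% of the microglia-like level in each class of at least 50 cells. The highest of these was the B cell-like class of the sorted sample, at 9.75% (3171 CPM), and the lowest the choroid plexus epithelial-like class of the total sample, at 0.139% (33.3 CPM). Across neural and vascular classes C1q and the 6 microglial genes stood at close percentages of the microglia-like level of the total sample: 1.63% and 1.60% in neuron-like cells, 3.38% and 3.103% in astrocyte-like cells, 2.75% and 3.13% in endothelial-like cells. After sorting, monocyte-like cells, which share Ctss, Tyrobp and Fcer1g with microglia, had 3.12% of the C1q but 46.4% of the microglial genes. In droplet data free RNA gives UMIs to cells that do not express a gene, and its part in the C1q of these classes was not tested. A C1q UMI was found in 31.3% [30.1–32.6] of neuron-like cells (median 1440.5 UMIs) and 17.9% [14.0–22.3] of choroid plexus epithelial-like cells (median 5603 UMIs) of the total sample, and in 20.97% and 4.92% after thinning. Sorted choroid plexus epithelial-like cells, mostly cluster 1 where those of the total sample were mostly cluster 15, held 515 CPM [502–527] of C1q against 33.3 CPM [27.5–39.9], and 456 CPM of the microglial genes against 24.9 CPM. Within the sorted class, the 134 cells of cluster 15 held 2418 CPM of C1q and 2081 CPM of the microglial genes. Cluster 1 held 353 and 318 CPM. Called doublets were 6.925% of cluster 15 and 0.612% of cluster 1, pooled over both samples. Cluster 15 had 227 cells of the total sample, in which only 8 doublets were called over all classes. The pooled value thus understates the rate of called doublets in the 134 sorted cells. The part of doublets and of the cluster mix in the gap was not tested.

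**Figure D2:**
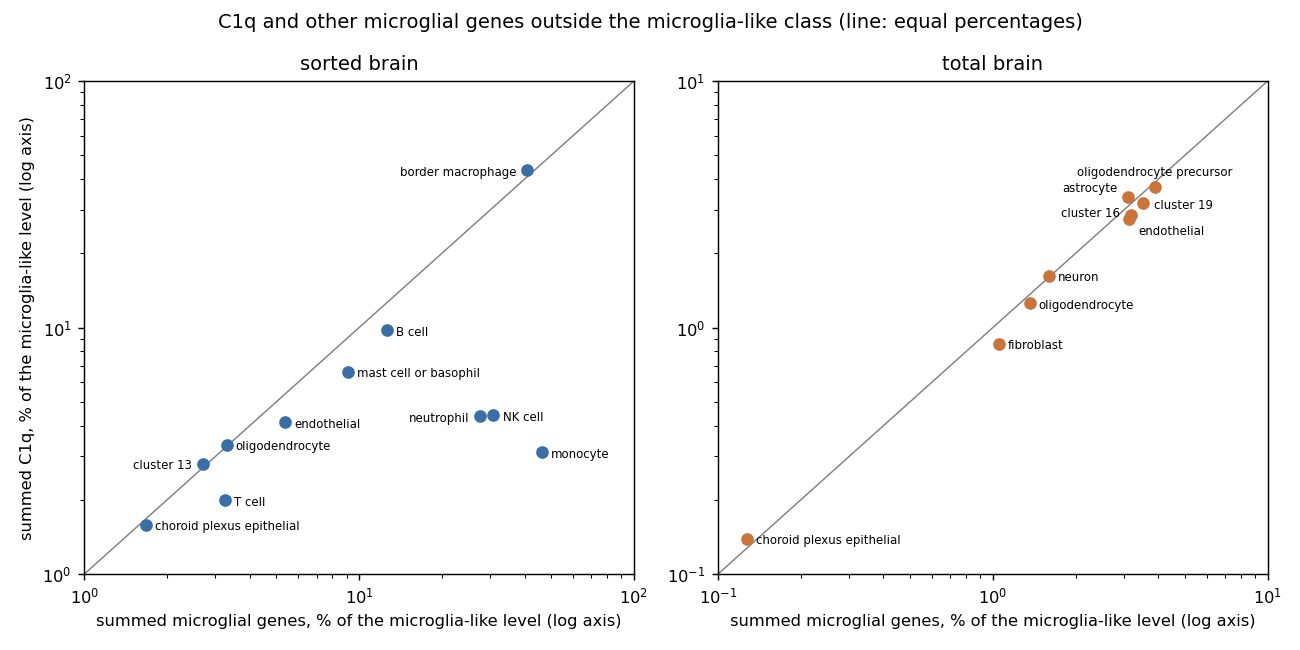
Summed C1q level against the summed level of 6 microglial genes (Cx3cr1, Csf1r, Ctss, Tyrobp, P2ry12 and Fcer1g), each as a percentage of the microglia-like level of the same sample, on log axes. Each point is a class of at least 50 cells; most lie near the line of equal percentages, border macrophages among them (43.4% against 40.9%), and monocytes, neutrophils and NK cells below it.

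C3, whose cleavage is the common step of all routes, was a gene of few molecules. It had 2 UMIs in the 4413 sorted microglia-like cells (0.214 CPM) and 17 in the 563 of the total sample (5.35 CPM [3.12–8.57]). By suffix of the total sample these microglial values were 7.88, 20.2, 0 and 0 CPM, so all C3 UMIs were in suffixes 1 and 2, and the ratio of 25.0 to the sorted sample has a counting interval of 5.93 to 223. Without suffix 2 of the total sample the log2 ratio was 1.43 against 2.39, and with 10 CPM added in place of 1 CPM it was 0.59. Neutrophil-like cells, phagocytes of the blood, had the highest C3 of the sorted classes of at least 50 cells, at 96.7 CPM [69.7–131], followed by monocyte-like cells at 64.4 CPM [47.2–86.0]. These classes held 41.2% and 45.1% of the C3 UMIs of the sample. By suffix, C3 in monocyte-like cells was 69.1, 50.8, 62.4 and 67.0 CPM from 46 UMIs in all, and in neutrophil-like cells 73.4, 124, 82.7 and 161 CPM from 42 UMIs. No suffix was without C3 in these classes. Of the unsorted cells, 38.2% of the C3 UMIs of the total sample were in 19 ependymal-like cells, the ciliated cells that line the ventricles, at 89.6 CPM [65.9–119]. The 20 ependymal-like cells of the sorted sample had 4 C3 UMIs, or 46.2 CPM [12.6–118]. Astrocyte-like cells had 2.74 CPM of C3 in the total sample.

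C4b, a form of the component that C1 cleaves, was highest in astrocyte-like and oligodendrocyte-like cells and low in microglia-like cells. Reads of C4b may be shared with its near-identical copy C4a, which is not analysed here, so the level is uncertain to that extent. Unsorted, C4b was at 223 CPM [205–242] in astrocyte-like cells, 146 CPM [131–161] in oligodendrocyte-like cells, 69.1 CPM [44.3–103] in oligodendrocyte precursor-like cells, 72.0 CPM [39.4–121] in fibroblast-like cells and 21.5 CPM [18.8–24.4] in neuron-like cells. Microglia-like cells had 3.78 CPM, endothelial-like cells 3.85 CPM and choroid plexus epithelial-like cells 0.868 CPM. A C4b UMI was found in 27.8% [24.6–31.1] of the 760 astrocyte-like cells and 14.8% [12.1–17.8] of the 635 oligodendrocyte-like cells, against 2.44% [1.47–3.78] of endothelial-like cells; after thinning the shares were 14.6%, 8.82% and 0.287%. Median depths of these classes were 1755, 1194 and 4662 UMIs. Sorted border macrophage-like cells had 43.5 CPM [33.1–56.3] of C4b and microglia-like cells 2.03 CPM.

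The suffixes of the total sample differed widely in C4b. In oligodendrocyte-like cells C4b was at 717, 388, 23.3 and 20.9 CPM in suffixes 1, 2, 3 and 4, from 60, 103, 264 and 208 cells. In astrocyte-like cells it was at 405, 395, 179 and 89.4 CPM, from 85, 105, 316 and 254 cells. In neuron-like cells it was at 50.3, 64.1, 14.3 and 9.84 CPM, from 564, 825, 2132 and 1907 cells. In each of these classes suffixes 1 and 2 were above suffixes 3 and 4, and no Poisson interval of the first pair overlapped one of the second. What the suffixes differ in is not labelled. The share of all genes with this order in these classes was not counted, so the separation is not shown to be particular to C4b. Of the 10 clusters of at least 50 cells in these 3 classes, 6 held both suffixes 1 and 2 above both others. The 4 that did not held 1 to 22 C4b UMIs each: neuron-like clusters 5 (119, 0, 20.5 and 0 CPM), 11 (13.8, 61.2, 18.6 and 23.0 CPM) and 27, and astrocyte-like cluster 25. In the oligodendrocyte-like cluster 24, with median depths of 10366 to 15410 UMIs by suffix, C4b was at 944, 318, 11.4 and 14.1 CPM from 11, 30, 40 and 32 cells, and in cluster 10 at 259, 684, 48.4 and 40.7 CPM. In the main astrocyte-like cluster, 8, it was at 432, 425, 198 and 97.9 CPM. As a share of cells with a C4b UMI, astrocyte-like cells had 55.3%, 40.0%, 24.1% and 18.1%, and after thinning 26.9%, 21.8%, 14.4% and 7.54%. The endothelial-like cells had 9.27, 8.55, 2.97 and 2.24 CPM, in the same order at a much lower level.

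Microglial RNA did not follow this order in oligodendrocyte-like cells, where summed C1q was 289, 122, 446 and 223 CPM over the same suffixes. In astrocyte-like cells it did, with 2367, 1050, 548 and 358 CPM of C1q and 1422, 662, 547 and 327 CPM of the microglial genes, and in neuron-like cells with 652, 639, 345 and 305 CPM of C1q. The part of this RNA in the C4b of those classes was not tested. Microglia-like cells of the total sample held 12 C4b UMIs in all, by suffix 7.88, 1.84, 4.17 and 1.097 CPM. Sorted oligodendrocyte-like cells, mostly cluster 21, had 0, 27.1, 86.1 and 58.9 CPM of C4b from 33, 11, 54 and 52 cells and 21 UMIs in all.

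**Figure D3:**
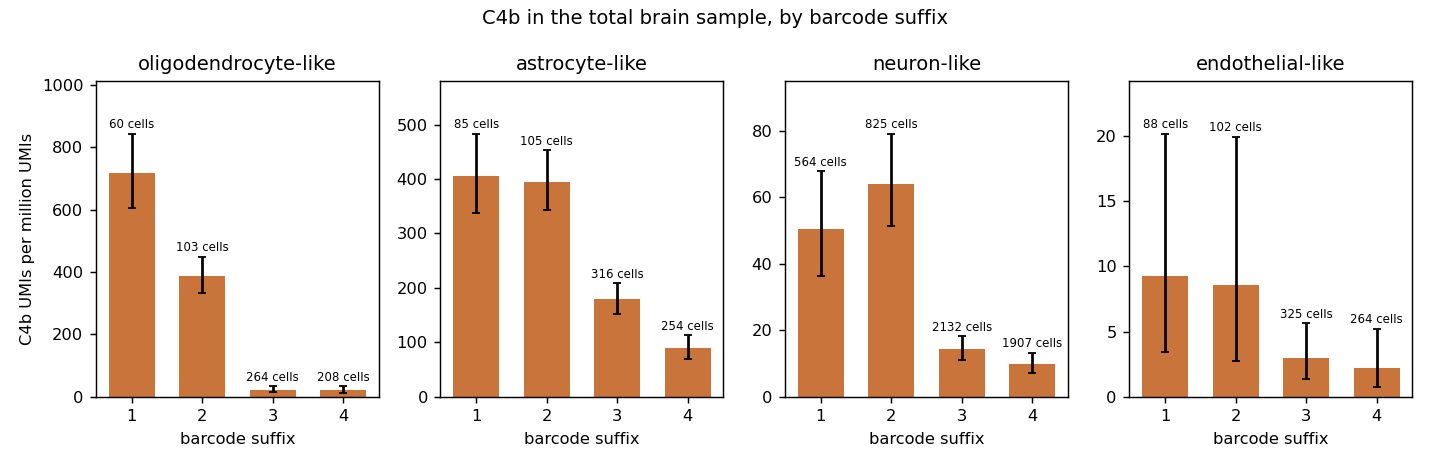
C4b level in CPM (y axis, from 0) by barcode suffix (x axis) in oligodendrocyte-like, astrocyte-like, neuron-like and endothelial-like cells of the total brain sample, with 95% Poisson intervals and cell numbers above the bars. Suffixes 1 and 2 stand above suffixes 3 and 4 in each class, from 717 and 388 against 23.3 and 20.9 CPM in oligodendrocyte-like cells to 9.27 and 8.55 against 2.97 and 2.24 CPM in endothelial-like cells, where the intervals overlap.

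Both receptors were highest in myeloid classes. C3ar1, the receptor of the C3a fragment, was highest in microglia-like cells, at 260 CPM [250–271] in the sorted and 219 CPM [204–236] in the total sample. By suffix it was 258, 284, 234 and 218 CPM in the sorted and 259, 211, 222 and 189 CPM in the total sample, and these values overlapped. The log2 ratio was −0.25, and without cluster 14 it was −0.78. The latter rests on few total cells, 127 of cluster 0 and 12 of cluster 3, and has no interval here. Border macrophage-like cells were close to microglia-like cells, at 237 CPM [212–265] in the sorted sample, with overlapping intervals. No other class of at least 50 cells exceeded 20 CPM: neutrophil-like cells were at 9.21 CPM and monocyte-like cells at 7.005 CPM. In the total sample the next class of at least 50 cells, cluster 16, had 18.8 CPM, against which microglia-like cells were 11.7-fold higher. Border macrophage-like cells, with 35 cells there, were below this size and not ranked. A C3ar1 UMI was found in 36.9% of sorted and 44.6% of total microglia-like cells, but in 21.5% and 14.9% after thinning to equal depth, which turned their order. Neuron-like cells, with a UMI in 0.737% of cells, give the level of a class not known for C3ar1.

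C5ar1, the receptor of the C5a fragment, was the member with the widest gap between the samples among those with over 100 UMIs in microglia-like cells of each. In microglia-like cells C5ar1 was at 212, 203, 244 and 257 CPM by sorted suffix and at 98.5, 132, 100 and 83.4 CPM by total suffix. The highest suffix of the total sample was below the lowest of the sorted sample. Over all cells it was 217 CPM [208–227] against 100 CPM [89.7–112], a ratio of 0.462 [0.410–0.521]. With cells of 2000 to 6000 UMIs alone the log2 ratio was −1.51 against −1.11 over all cells. Without cluster 14, which leaves few total cells, it was −1.43. After thinning, 17.8% of sorted and 8.27% of total microglia-like cells had a C5ar1 UMI. Neutrophil-like cells of the sorted sample had the highest level, 403 CPM [345–467], which was 185% of the microglia-like level, and 61.3% [52.1–69.9] of these 124 cells had a UMI. By suffix, neutrophil-like cells were at 285, 461, 476 and 355 CPM. Border macrophage-like cells were at 227 CPM and monocyte-like cells at 42.0 CPM. Neuron-like cells, of which 0.276% had a C5ar1 UMI, were at 1.37 CPM in the total sample.

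Both regulators were highest outside the immune classes. Serping1, which encodes the C1 inhibitor, was at 545 CPM [446–659] in the 79 fibroblast-like cells of the total sample, 9.21 times the next class of at least 50 cells. That class was the unnamed cluster 16, led by Rgs5 and Vtn and with markers of both mural and endothelial cells, at 59.2 CPM [48.4–71.7]. After sorting, Serping1 was at 272 CPM [246–300] in the unnamed cluster 13, led by Mgp, Nov and Igfbp6, which held 78.6% of its UMIs. The 11 sorted fibroblast-like cells, below the size ranked, were higher, at 655 CPM [415–983] from 23 UMIs. By suffix, cluster 13 was at 287, 301, 232 and 285 CPM, and cluster 16 at 52.2, 58.2, 55.7 and 64.0 CPM, so neither cluster held a suffix that stood apart. In the fibroblast-like cells of the total sample Serping1 was at 678, 80.04, 427 and 868 CPM from 8, 9, 37 and 25 cells. A Serping1 UMI was found in 46.4% [41.4–51.5] of sorted cluster 13 cells and 38.0% [27.3–49.6] of unsorted fibroblast-like cells. Microglia-like cells had 4 UMIs in the sorted and 3 in the total sample. Unsorted endothelial-like cells had 4.15 CPM.

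Cd59a, the membrane inhibitor of the terminal pore, was highest in choroid plexus epithelial-like and endothelial-like cells. Unsorted choroid plexus epithelial-like cells, which secrete cerebrospinal fluid, had 206 CPM [191–221], and the level was 182 CPM [172–193] in unsorted endothelial-like cells. The sorted sample had 194 CPM [187–202] and 222 CPM [168–286] in the same classes. In choroid plexus epithelial-like cells the suffixes were at 231, 197, 172 and 150 CPM in the sorted and at 178, 212, 208 and 225 CPM in the total sample, and they overlapped, with a ratio of total to sorted of 1.06 [0.974–1.15]. This class was mostly cluster 1 in the sorted and cluster 15 in the total sample. For unsorted endothelial-like cells the suffixes were at 172, 183, 181 and 187 CPM. Oligodendrocyte-like cells had 43.7 CPM [26.7–67.4] in the sorted and 55.7 CPM [46.9–65.8] in the total sample, and microglia-like cells 4.07 and 2.20 CPM. Reads may be shared between Cd59a and its copy Cd59b, which was at 25.1 and 22.6 CPM in choroid plexus epithelial-like cells and below 10 CPM in each other class of at least 50 cells.

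Of the 9 members, 4 were highest in microglia-like cells among the classes of at least 50 cells in the sorted sample (C1qa, C1qb, C1qc and C3ar1), against 10.9% of all genes with 10 or more UMIs there. Among those of the total sample 6 were (the same 4, C5ar1 and C3), against 9.71% of all genes. Neutrophil-like cells led C5ar1 in the sorted sample (403 CPM, microglia-like cells 217 CPM). In the total sample they numbered 6 and were not ranked. Nor were its 35 border macrophage-like, 5 monocyte-like and 19 ependymal-like cells. The ependymal-like cells had more C3, at 35.3 CPM in their lowest suffix against 20.2 CPM in the highest of microglia-like cells. Among the ranked classes, the place of C3 rests on 17 UMIs against 1 in fibroblast-like cells, with overlapping intervals. In the sorted sample the intervals of the highest and the next class overlapped for C3ar1 (microglia-like and border macrophage-like), C3 (neutrophil-like and monocyte-like) and C4b (oligodendrocyte-like and border macrophage-like), and in both samples for Cd59a (endothelial-like and choroid plexus epithelial-like). The other members spread over neutrophil-like cells (C3 and C5ar1), oligodendrocyte-like cells (C4b), endothelial-like cells (Cd59a) and cluster 13 (Serping1) of the sorted sample, and astrocyte-like (C4b), choroid plexus epithelial-like (Cd59a) and fibroblast-like cells (Serping1) of the total sample.

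**Figure D4:**
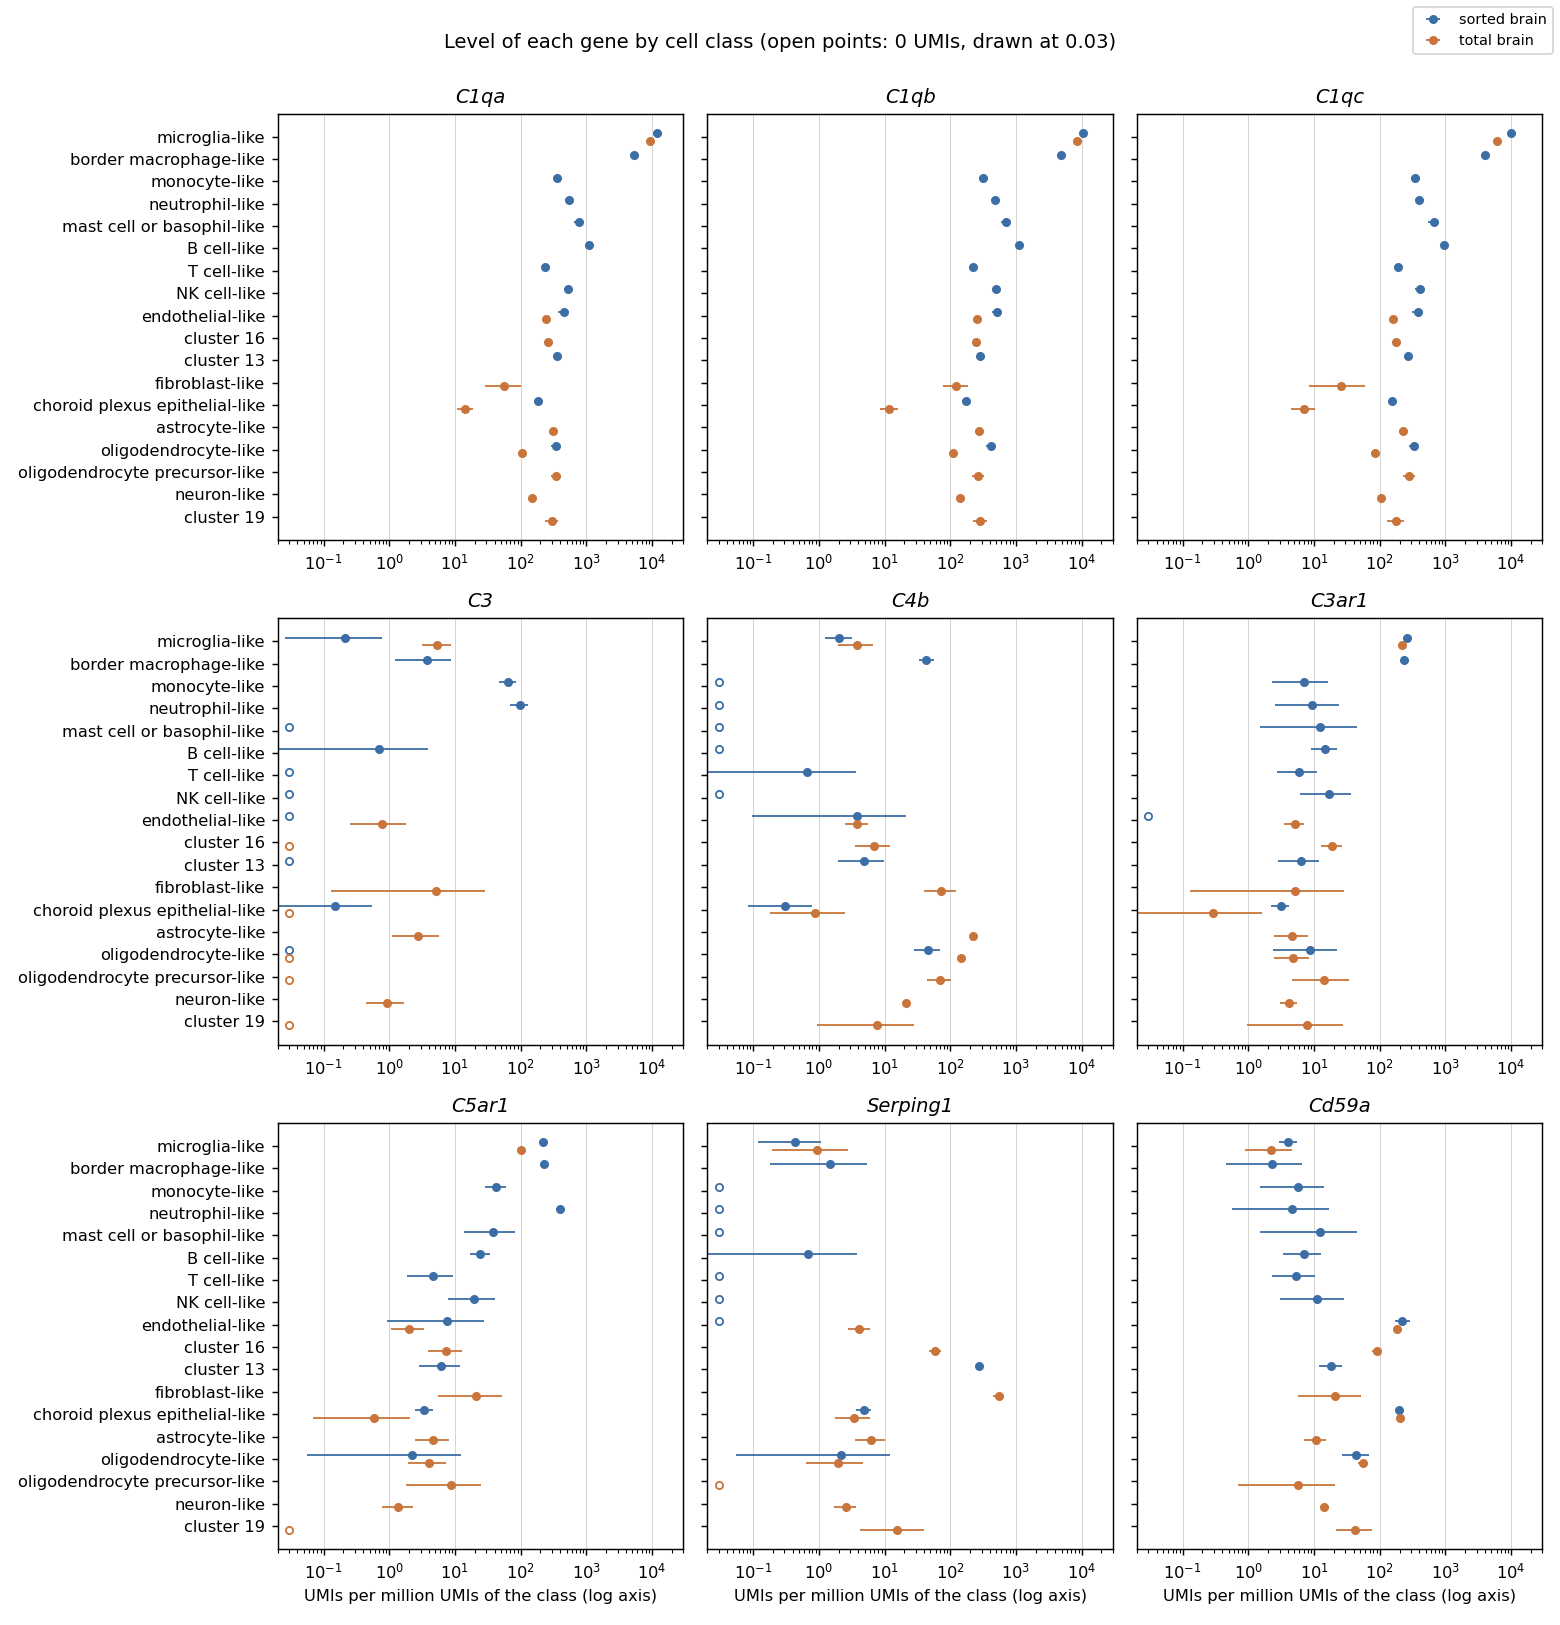
CPM of each member (x axis, log scale) in each cell class of at least 50 cells (rows) of the sorted (blue) and total (orange) brain samples, with 95% Poisson intervals; open points have 0 UMIs. The C1q genes peak above 6000 CPM in microglia-like cells, C3ar1 and C5ar1 in myeloid classes, C4b in astrocyte-like cells (223 CPM), Serping1 in fibroblast-like cells (545 CPM) and Cd59a in choroid plexus epithelial-like and endothelial-like cells.

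Between the samples, 8 of the 9 members had 10 or more UMIs in microglia-like cells, and Serping1 did not. Of the 8, 1 was at least 2-fold lower in the total sample (C5ar1), against 3.98% of the 12800 genes with 10 UMIs, and 1 at least 2-fold higher (C3), against 23.7% of them. The suffix values lay apart and lower in the total sample for 4 of the 8 (C1qa, C1qb, C1qc and C5ar1), against 11.7% of all genes, and apart and higher for 0, against 21.9%. The median log2 ratio was −0.35 over the 8 members and 0.19 over all genes. The samples differ by design, so these counts describe the libraries.

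Within the microglia-like cells C1q varied less than the receptors. Clustering these cells again, without complement genes, gave 6 subclusters, each mostly of 1 sample. Those of the sorted sample held 30829 CPM of C1q (subcluster 0, led by Ccl4 and Nfkbia), 34239 (subcluster 1, led by Dynlt1c and Ccr6), 34313 (subcluster 3, led by Lgals3 and Cd74) and 32004 (subcluster 5, led by Ifit3 and Ifitm3). Subcluster 5, with 4957 CPM of 10 interferon-stimulated genes against 272 in subcluster 0, was within the range of the others for C1q. Of the unsorted cells, subcluster 2, of 442 cells, held 23114 CPM of C1q and subcluster 4, of 112 cells led by AY036118, Cst7, Gm42418, Apoe, Timp2 and Lars2, 31794 CPM.

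Subcluster 4 had the lowest receptor levels. C3ar1 was at 64.9 CPM [37.8–104] in it and at 232 CPM [215–251] in subcluster 2 of the same sample, and C5ar1 at 38.2 CPM [18.3–70.3] and 105 CPM [93.7–118]. By suffix, C3ar1 in subcluster 4 was at 145, 31.3, 35.2 and 30.8 CPM from 17 UMIs in all. A list of 10 genes known from disease-associated microglia, among them Apoe and Cst7, summed to 21342 CPM in subcluster 4 and 9072 in subcluster 2, and 8 homeostatic genes, such as P2ry12 and Tmem119, to 7762 and 15994 CPM. Median depth was 1889 UMIs in subcluster 4 and 6545.5 in subcluster 2. Mitochondrial genes summed to 56055 and 34722 CPM, and AY036118 and Gm42418, genes that overlap ribosomal RNA sequence, were at 1650 and 5742 CPM in subcluster 4 and at 541 and 3021 CPM in subcluster 2. The part of depth and RNA quality in the receptor levels was not tested. Sorted C5ar1 was at 139 CPM [101–186] in subcluster 3 and at 236 CPM [222–251] in subcluster 0.

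**Figure D5:**
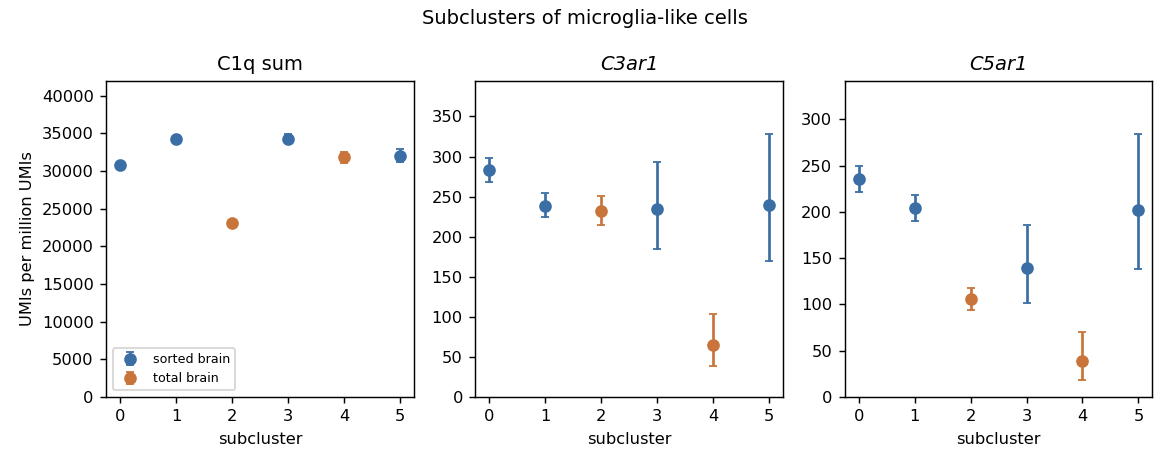
CPM (y axis, from 0) of summed C1q, C3ar1 and C5ar1 in the subclusters of microglia-like cells (x axis) of the sorted (blue) and total (orange) brain samples, with 95% Poisson intervals. Subcluster 4 has the lowest C3ar1 (64.9 CPM) and C5ar1 (38.2 CPM) but not the lowest C1q.

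Of 45 other complement genes listed, 44 were in the files, and 21 of them reached 20 CPM and 10 UMIs in at least 1 class. Among receptors, Itgam, which encodes a chain of complement receptor 3, was highest in microglia-like cells of both samples, at 276 CPM [265–287] in the sorted and 533 CPM [508–559] in the total sample, without overlap of suffix values (193 to 326 and 364 to 695 CPM). C5ar2, a further C5a receptor, was also highest there, at 48.9 and 68.3 CPM, and Cr2, the complement receptor of B cells, was highest in B cell-like cells of the sorted sample, at 41.7 CPM. Cd93 was highest in endothelial-like cells, at 496 CPM [479–514] in the total sample, where cluster 16 had 293 CPM [268–319]. Among recognition molecules and initiators, Fcnb was at 327 CPM [275–385] in neutrophil-like cells, Colec12 at 1039 CPM [900–1192] in fibroblast-like cells, and Cfp, which encodes properdin, at 157 CPM in neutrophil-like and 144 CPM in monocyte-like cells after sorting. C1s1, a protease of the C1 complex, reached 27.3 CPM in cluster 16 of the total sample and 1.29 CPM in choroid plexus epithelial-like cells of the sorted sample.

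Among regulators, Clu was highest in choroid plexus epithelial-like cells, at 2620 and 1366 CPM. Vtn was at 6949 CPM in cluster 16 and 4319 CPM in fibroblast-like cells of the total sample, and Cd55 at 256 CPM [230–283] in B cell-like cells. Csmd1 was at 276 CPM [266–286] and Susd4 at 157 CPM [150–164] in unsorted neuron-like cells. Unsorted oligodendrocyte precursor-like cells had 233 CPM [185–290] of Csmd1 and 173 CPM [132–222] of Susd4, with intervals that overlap those of neuron-like cells. In microglia-like cells 19 of the 44 had 10 or more UMIs. Of these, 5 were at least 2-fold higher and 3 at least 2-fold lower in the total sample, against 23.7% and 3.98% of all genes. The suffix values lay apart and higher for 2 (Itgam and Cd46) and lower for 3 (Clu, Vtn and Cpn1), against 21.9% and 11.7% of all genes. Their median log2 ratio was 0.24, and that of all genes 0.19. Itgam was higher in the total sample and the C1q genes lower, in the same cells.

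Genes with the most similar pattern were taken by Pearson's r of log2 levels over 22 profiles (a class of at least 50 cells in a sample), among 9948 genes; the profiles share libraries and depth, and no p is given. For C1qa these were C1qc (r = 0.995), C1qb (0.991), Trem2 (0.985) and Csf1r (0.958). C3ar1 was closest to Siglech (0.895), and C5ar1 to Cd14 (0.915) and Cd33 (0.911). C3 was closest to Cd300lb (0.948) and Fpr1 (0.879), C4b to Slc6a9 (0.907), Serping1 to Eva1c (0.916) and Cd59a to Crip2 (0.903).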

How the data were processed

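The matrices deposited by the authors hold UMI counts per gene and cell from 3′ libraries. The submitters' processing notes name Cell Ranger 3.0.2 and build mm10. Per the file headers, the version was 3.0.2 for the sorted matrix but 3.1.0 for the total one. There were 0 columns of other samples. Members and gene lists were chosen with earlier results of these data known.

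Barcodes needed 500 genes and no more than 10% mitochondrial UMIs to stay (74.6% sorted, 63.8% total). Cells were clustered with scanpy 1.11.5 and leidenalg 0.10.2 on 2000 variable genes without complement genes, 30 principal components and 15 neighbours at resolution 1 (0.5 for subclusters). A cluster took a class name when at least 50% of its markers, and at least 3, were 2-fold over the median cluster (with 10 CPM added) and at least 20% of the highest cluster. Scrublet marked 0.834% of sorted and 0.0854% of total cells as doublets; in the total sample it has thus not worked, and doublets were not removed.

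Counts were summed per class, sample and suffix. Log2 ratios add 1 CPM. No count model was used for a test, since each group has 1 sample; edgeR 4.0.16 (TMM) and DESeq2 1.42.0 gave size factors as alternatives only. Named genes are the 9 members, other complement genes with 20 CPM and 10 UMIs in a class, and the 5 nearest genes by r, some of which are given; 2 genes of the planned lists are not reported here, and sums and counts leave them out. The ratio calculation was tested on simulated data. RefSeq and GENCODE M21 gave promoters and positions.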

Additional observations from a re-analysis of the deposited data

Results flagged for a closer look

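Of 45 groups of 4 suffixes examined for the members, 2 held 1 suffix far from the other 3; chance flags about 1 in 20 groups. Both were T cell-like cells of the sorted sample, where suffix 1 had C1qa at 506 CPM (149.6, 140 and 167 in the others) and C1qb at 457 CPM (139.9, 125 and 179). The 6 microglial genes moved with them, at 1538 CPM in suffix 1 against 690.1, 646 and 732, and their part was not tested.

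The barcodes that did not pass the cell filter also held complement RNA. Summed C1q was at 4877 CPM [4819–4935] in 3423 such sorted barcodes and 830.0 CPM [815–845] in 5307 of the total sample, above the limits that 3 counts set (0.536 and 0.204 CPM). The 6 microglial genes were at 4369 and 641 CPM in the same barcodes. C4b was at 41.1 CPM and Serping1 at 24.5 CPM in those of the total sample.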

How the results depend on the processing

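The summed C1q level of microglia-like cells in the sorted sample (32510 CPM) was 32059 under a looser and 32802 under a stricter cell filter, 31508 with equal weight per suffix, 36546 without mitochondrial and ribosomal protein genes, 31973 to 32877 leaving out each suffix, and, in alternatives chosen after seeing the data, 30550 without cluster 0, 33958 without cluster 3 and 33138 for cells of 2000 to 6000 UMIs. In the total sample (23960 CPM) the same settings gave 23711, 23787, 24188, 27615, 23607 to 24442, 23245, 23773 and 25677, and 29604 without cluster 14. The log2 ratio of total over sorted (−0.44) was −0.46 under the stricter filter, −0.38 with equal weight, −0.40 without mitochondrial and ribosomal genes, −0.46 to −0.41 leaving out each suffix, −0.68 with TMM and −0.67 with DESeq2 size factors, −0.39 without cluster 0, −0.51 without cluster 3, −0.14 without cluster 14 and −0.37 for cells of 2000 to 6000 UMIs. TMM and DESeq2 moved all genes by −0.24 and −0.23. The number of members at least 2-fold apart (2) was 1 under the stricter filter, with 10 CPM added and for cells of 2000 to 6000 UMIs, and 1 to 3 leaving out each suffix; C5ar1 was −0.94 on the log2 scale under the stricter filter. The sign of the log2 ratio held under all 23 alternatives for C1qa, C1qc, C3ar1, C5ar1, C3, C4b and Cd59a, under 22 for C1qb and under 20 for Serping1, which has 4 and 3 UMIs. Most alternatives reuse the same counts, so a kept sign does not establish a direction. The ratio of total to sorted was 1.86 [0.822–4.03] for C4b and 0.542 [0.204–1.23] for Cd59a, and both intervals include 1. The causes of changes between settings were not tested. Members highest in microglia-like cells numbered 3 to 5 in the sorted and 5 to 6 in the total sample.

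No paired analysis was possible because each group has 1 sample. Depth limits C3, C4b, Serping1 and Cd59a in microglia-like cells, with 2, 19, 4 and 38 UMIs in the sorted and 17, 12, 3 and 7 in the total sample.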
